A study of Mus musculus with 4 samples.

Results

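Cartilage and bone genes were examined in whole tendon of untreated adult C57Bl/6 mice aged 4 months. The set was a list of 10 gene symbols: Sox9, Runx2, Sp7, Alpl, Ibsp, Spp1, Col10a1, Matn3, Mgp and Ank. A gene was measured where the platform annotation gave a probe set that symbol alone, and the probe set with the highest mean over the arrays stood for the gene. This left 8 of the 10 listed genes, out of 22180 genes measured in all. Runx2 and Spp1 were not analysed here. There were 2 arrays labelled male and 2 labelled female, all of wild-type genotype, and each value is a log2 RMA expression value of 1 array. Achilles and plantaris tendons of an animal had been combined before RNA extraction, so the RNA was that of all cells in the tissue, although the labels name tenocytes. The labels give 3 RNA wells for a sample without saying whether these were pooled, and whether the samples of a sex came from separate animals is not stated, so a p-value speaks to the spread among these arrays alone, part of which may be technical. Having 2 arrays per sex limits the precision.

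Cartilage is built by chondrocytes under the transcription factor Sox9, and bone by osteoblasts under Runx2 and Sp7. Mineral forms where phosphate is freed from pyrophosphate, a step carried out by the phosphatase encoded by Alpl. It is held back by pyrophosphate, which the Ank protein brings out of the cell, and by matrix Gla protein, the product of Mgp. Tendon is a soft tissue that does not normally mineralize along its length, but it joins bone through a fibrocartilage zone, and tendons can ossify with age or injury.

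The upstream sequences of 4 measured genes are shown because they differ in their core promoter letters and in whether the gene was detected. Ibsp and Alpl were detected in tendon as described below, whereas Col10a1 and Matn3 were not detected on all arrays. Each line holds the 250 bases before a RefSeq transcription start of build GRCm38.p6, read 5′ to 3′ on the gene's strand. Capitals mark matches, on both strands, to the TATA box letters TATAAA, the CCAAT box, the RUNX core letters TGTGGT and the SOX core letters ACAATG. No matches overlapped one another.

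Ibsp, chr5:104299037-104299286, plus strand: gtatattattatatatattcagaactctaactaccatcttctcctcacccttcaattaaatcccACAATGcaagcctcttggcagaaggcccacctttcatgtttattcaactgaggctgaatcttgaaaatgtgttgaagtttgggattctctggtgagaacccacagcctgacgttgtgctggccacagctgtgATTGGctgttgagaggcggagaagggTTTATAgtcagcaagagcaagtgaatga

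Alpl, upstream start, chr4:137796385-137796634, minus strand: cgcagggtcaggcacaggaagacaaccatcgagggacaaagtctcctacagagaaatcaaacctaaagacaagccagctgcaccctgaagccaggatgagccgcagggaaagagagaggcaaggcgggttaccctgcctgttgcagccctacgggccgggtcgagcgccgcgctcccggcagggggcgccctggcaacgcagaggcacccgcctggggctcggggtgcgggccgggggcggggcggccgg

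Alpl, downstream start, chr4:137766476-137766725, minus strand: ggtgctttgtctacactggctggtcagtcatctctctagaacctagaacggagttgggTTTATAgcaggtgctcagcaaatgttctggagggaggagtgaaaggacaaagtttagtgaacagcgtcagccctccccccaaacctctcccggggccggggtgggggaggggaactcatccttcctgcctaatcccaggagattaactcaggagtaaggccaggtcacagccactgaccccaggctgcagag

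Col10a1, chr10:34389731-34389980, plus strand: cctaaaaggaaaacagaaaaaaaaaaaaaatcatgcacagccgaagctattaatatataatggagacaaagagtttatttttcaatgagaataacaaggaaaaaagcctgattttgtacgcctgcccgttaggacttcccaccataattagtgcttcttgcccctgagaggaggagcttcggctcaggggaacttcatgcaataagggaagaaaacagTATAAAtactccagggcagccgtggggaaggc

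Matn3, chr12:8947679-8947928, plus strand: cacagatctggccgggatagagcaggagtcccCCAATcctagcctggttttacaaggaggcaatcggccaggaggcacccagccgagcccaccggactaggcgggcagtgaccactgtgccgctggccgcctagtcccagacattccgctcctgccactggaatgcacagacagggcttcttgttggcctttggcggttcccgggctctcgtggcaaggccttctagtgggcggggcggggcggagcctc

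In the Ibsp window the TATA letters lay on the opposite strand, 28 to 23 bases before the start, and the CCAAT letters likewise at 54 to 50 bases. An inverted TATA box and an inverted CCAAT box are textbook features of this promoter. A SOX core lay 186 to 181 bases before the Ibsp start. Col10a1 had its TATA letters on the gene's own strand, 32 to 27 bases before the start. Matn3 had a CCAAT match 218 to 214 bases before the start and none of the other letters. At the upstream Alpl start none of the 4 motifs was found, in a window with 20 CpG dinucleotides and 68.4% G or C. The downstream Alpl start had 4 CpG and 56% G or C, with TATA letters on the opposite strand 192 to 187 bases before it. The window of Ank, a gene also detected as described below, is not printed. It held none of the 4 motifs, with 49 CpG and 81.2% G or C. Among all 32851 windows of this length, 12.4% held TATAAA, 33.8% CCAAT, 14.0% TGTGGT and 10.7% ACAATG in either orientation, and the median window had 6 CpG. These matches describe letters only, and the table held starts for 7 of the 10 listed genes.

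The first question was which of the genes gave signal in tendon. The table holds no detection calls, so a background was set for each array at the 95th percentile of 1405 probe sets of olfactory and vomeronasal receptor genes, which serve smell and pheromone sensing. It lay between 2.73 and 2.90 on the log2 scale. Mgp, Ank, Ibsp, Alpl and Sox9 were above it on all 4 arrays, whereas Sp7 and Col10a1 passed it on 1 array each and Matn3 on none. These are 5 of 8 genes, beside 31.4% of all 23521 probe sets tested. The list was assembled with earlier results of these data in view, so the larger share is a description. Under a stricter background, the 99th percentile of the same receptors, 3 genes stayed above on all arrays (Mgp, Ank and Ibsp), and Sox9 and Alpl passed on 3 arrays each. The share of all probe sets above that percentile was not computed, so this count has no comparison. Levels of different genes are not ranked, since each rests on its own probes.

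**Figure D1:**
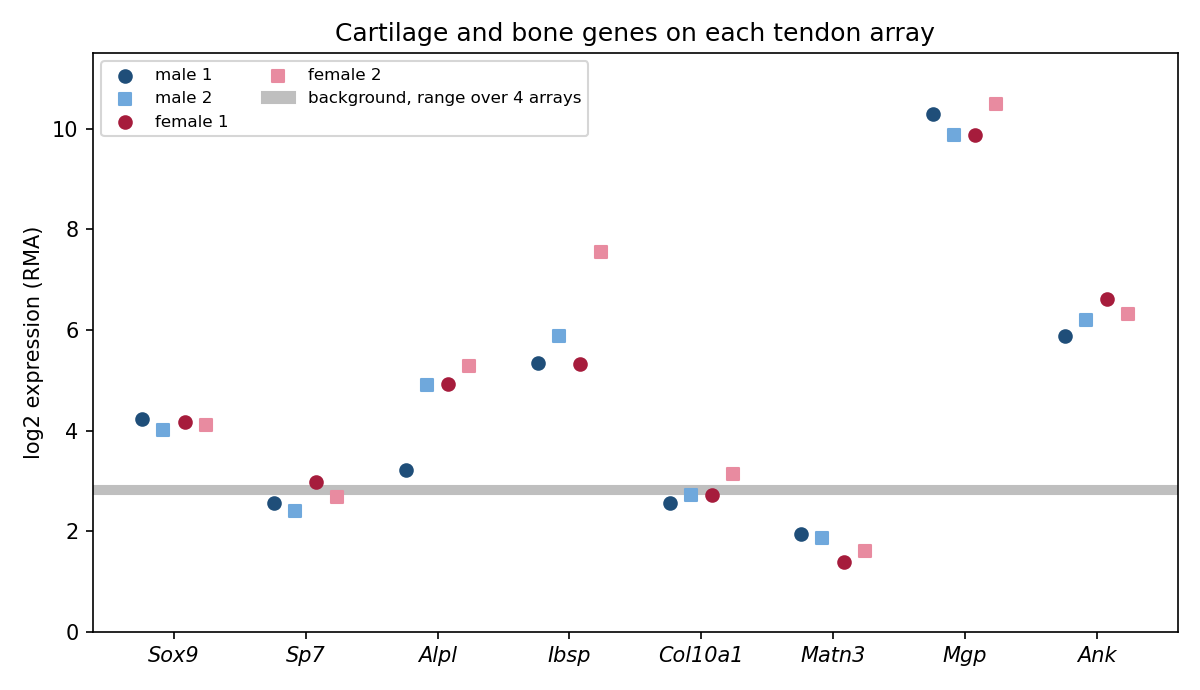
Log2 RMA expression of the 8 measured genes on each of the 4 arrays, with the grey band showing the range of the background over arrays (2.73 to 2.90). Mgp, Ank, Ibsp, Alpl and Sox9 lie above the band on every array, Ibsp has 1 high array (female 2, 7.55) and Alpl 1 low array (male 1, 3.21).

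Of the transcription factors, Sox9 (probe set 17257946, chromosome 11) directs cartilage formation and, together with scleraxis, marks the progenitors of the tendon attachment zone. It was at 4.24 in male 1, 4.01 in male 2, 4.16 in female 1 and 4.12 in female 2. All 4 arrays lay within 0.23 of each other, and 94.0% of the probe sets above background on all arrays had a wider range. The sexes did not separate: males averaged 4.12 ± 0.16 (SD, n = 2) and females 4.14 ± 0.03 (SD, n = 2). Its difference, female minus male, was 0.02 (SE 0.16, 95% interval -0.41 to 0.45). Sp7 (chromosome 15), which encodes the osteoblast factor osterix, was at 2.56 and 2.41 in males and at 2.98 and 2.67 in females. Only female 1 exceeded its own background, and by 0.21, so no difference between the sexes is read for Sp7.

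Alpl (chromosome 4) encodes tissue-nonspecific alkaline phosphatase, which hydrolyses pyrophosphate and is also found on capillary endothelium and other cells. Its probe set 17548317 was at 3.21 in male 1, 4.90 in male 2, 4.93 in female 1 and 5.28 in female 2. Male 1 alone was low, 1.83 below the mean of the other arrays or 3.56-fold on a linear scale, and the 2 female arrays lay just above male 2. Males averaged 4.06 ± 1.20 (SD, n = 2) and females 5.11 ± 0.25 (SD, n = 2), so the difference was 1.05 (SE 0.60, 95% interval -0.56 to 2.66). Without male 1 the difference was 0.20, and without male 2 it was 1.90. A further probe set of Alpl, 17431720, did not show the low value: it was at 3.59 in male 1, 3.30 in male 2, 3.60 in female 1 and 3.86 in female 2. On that probe set male 1 and female 1 were nearly equal, male 2 was lowest, and the difference was 0.29 (SE 0.19). The probe sets therefore disagree on male 1, and which transcripts each one reads is not given in the sources used here.

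Male 1 was also low for many markers of vessel and fat cells. Emcn, the endothelial sialomucin endomucin, was at 2.32 in male 1, which is below background (-0.58). On the other arrays Emcn was between 4.70 and 5.12. The adiponectin gene Adipoq was at 4.62 in male 1 against 5.78 to 6.67. Of 14 endothelial and mural genes, 9 had their lowest value in male 1, and 8 of 9 adipocyte genes did, beside 26.6% of all genes. The summed linear signal of the adipocyte list was 1469 in male 1, 1981 in male 2, 2082 in female 1 and 2130 in female 2. For the endothelial and mural list it was 591 in male 1 and between 692 and 731 on the other arrays. Such sums, here and below, rest mostly on the brightest genes. In these lists the brightest were Fabp4, at 10.06 in male 1, and Rgs5, at 8.47 in male 1. The median deviation from the gene means in male 1 was -0.21 for the endothelial and mural list and -0.76 for the adipocyte list. Not every vessel gene was low there: Tagln was highest in male 1, at 4.87 against 3.19 to 4.51. Pecam1 was lowest in male 1 but only by little, at 5.37 against 5.45 to 5.77. On all arrays 10 of 14 endothelial and mural genes and 7 of 9 adipocyte genes were above background, beside 31.5% of all genes. The part of these cells in the Alpl value was not tested. In these bulk samples fewer cells of a type and less RNA per cell cannot be told apart.

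Ibsp (probe set 17439815, chromosome 5), whose inverted TATA promoter is shown above, encodes bone sialoprotein, an acidic, mineral-binding matrix protein of bone and mineralizing cartilage. It was at 5.35 in male 1, 5.88 in male 2, 5.33 in female 1 and 7.55 in female 2. All arrays were at least 2.45 above background. Female 2 stood apart at 4.10-fold the mean of the other 3 arrays, which lay within 0.55 of each other; female 1 was the lowest of all. The range over arrays was 2.23, and 1.65% of the probe sets above background on all arrays had a wider one. Males averaged 5.61 ± 0.38 (SD, n = 2) and females 6.44 ± 1.57 (SD, n = 2). The difference of 0.83 (SE 0.78, 95% interval -1.27 to 2.93) rested on female 2, without which it was -0.29, and was 1.94 without female 1.

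Ibsp lies in a run of genes for mineral-associated acidic proteins on chromosome 5. In the RefSeq gene table of GRCm38.p6 the order is Dspp, Dmp1, Ibsp, Mepe and Spp1. Dspp, a dentin gene, was above background on 1 array. Dmp1 and Mepe, both known from osteocytes, were above it on 0 arrays, with Dmp1 between 1.62 and 2.22 and Mepe between 1.85 and 2.48. Among the 4 measured genes of the run, Ibsp was thus the one with signal on every array.

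The female 2 array also stood apart for macrophage genes and for skeletal muscle genes. Cd68, which encodes a lysosomal protein of macrophages, reached 6.78 in female 2 against 4.62 to 4.97 elsewhere. Of 17 macrophage genes 14 had their highest value there, beside 24.8% of all genes. The summed linear signal of that list was 434 and 519 in males, 460 in female 1 and 947 in female 2. Of the 17 genes, 8 were above background on all arrays, beside 31.5% of all genes. Of 15 skeletal muscle genes, female 2 was under the average of the remaining arrays for 13, beside 11563 of all 22180 genes. The muscle list had a median deviation of -0.41 from the gene means in female 2. Its summed linear signal there was 10082, against 14843 to 15539 on the other arrays. The fast-fibre gene Myh4 was at 7.35 against 10.20 to 10.61, whereas Myh2 was at 9.34 against 9.01 to 9.74. Tendon genes had a median deviation of 0.31 in female 2 and 0.21 in male 1 over 13 genes. Of these 13, 8 had their highest value in female 2, and for 2, Tnmd and Egr1, female 2 was under the average of the remaining arrays. Adipocyte genes had a median deviation of 0.49 in female 2, with 6 of 9 highest there. The part of these tissues in the Ibsp value was not tested.

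**Figure D2:**
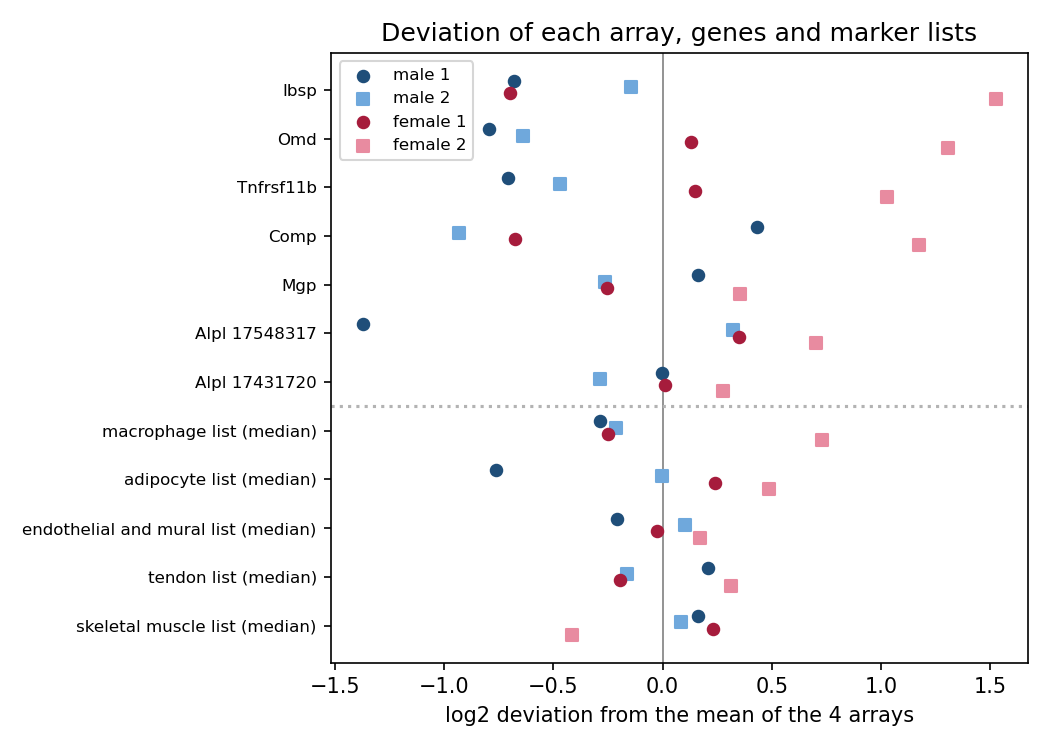
Log2 deviation of each array from the mean of the 4 arrays for single genes (above the dotted line; Alpl by probe set) and for marker lists (below it, median over the genes of the list). Female 2 lies far right for Ibsp (1.53) and for the macrophage list (0.73), and male 1 far left for Alpl probe set 17548317 (-1.37) and the adipocyte list (-0.76).

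Of the cartilage matrix genes, Col10a1 (chromosome 10) encodes the collagen of hypertrophic chondrocytes. It was at 2.56 and 2.72 in males and at 2.71 and 3.13 in females. Female 2 exceeded the background by 0.39 and the other 3 arrays lay below it. Matn3 (chromosome 12), which encodes matrilin-3 of growth cartilage, was at 1.94 and 1.86 in males and at 1.38 and 1.60 in females, at least 0.96 below background on each array. Its groups did not overlap, but all 4 values lay within background, and no difference is read for either gene.

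Among the inhibitors of mineralization, Mgp (probe set 17472192, chromosome 6) encodes a secreted protein whose carboxylated glutamates bind calcium, and it is made by chondrocytes, vascular smooth muscle and fibroblasts. It was at 10.29 in male 1, 9.87 in male 2, 9.87 in female 1 and 10.48 in female 2, between 7.02 and 7.75 above background. In each sex 1 array was high and 1 low, so the values of the sexes overlapped. Males averaged 10.08 ± 0.30 (SD, n = 2) and females 10.18 ± 0.43 (SD, n = 2). The difference was 0.10 (SE 0.29, 95% interval -0.67 to 0.87), and it was -0.21 without female 2.

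Ank (probe set 17310673, chromosome 15) encodes the membrane protein that raises extracellular pyrophosphate; mice that lack it calcify their joints. It was at 5.88 in male 1, 6.20 in male 2, 6.62 in female 1 and 6.32 in female 2. Both females lay above both males, by 0.12 where the groups came closest. The means were 6.04 ± 0.22 (SD, n = 2) and 6.47 ± 0.21 (SD, n = 2), a difference of 0.43 (SE 0.20, 95% interval -0.11 to 0.97). The SE was 0.28 when dim probe sets were left out and 0.34 with a trended robust prior, so the interval depends on the fit. Leaving out any 1 array kept the sign, with values between 0.27 (without male 1) and 0.58, and 0.28 without female 1.

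Males and females were compared because the series was made to describe sex differences in tendon. None of the 8 genes was called by limma after Benjamini-Hochberg adjustment over all 23521 probe sets; their adjusted p lay between 0.969 and 0.999. Over all probe sets 0 were called (0%), and 1056 (4.49%) had an unadjusted p under 0.05, against 0 of the 8. Both females lay above both males for Sp7, Alpl and Ank, 3 of 8 genes beside 15.8% of all probe sets. Males lay above females for Matn3, 1 of 8 beside 17.5%. Sp7 and Matn3 are in these counts although no difference is read from their levels. The estimated difference was toward females in 7 of 8 genes, the dim Sp7 and Col10a1 included, beside 48.7% of all genes and 57.8% of those above background on all arrays. The median over the 8 genes, with the dim Matn3 too, was 0.31 against -0.01 over all genes and 0.06 over those above background. That median was 0.05 without female 2. Xist was at 7.34 and 8.04 in females and at 2.47 and 1.98 in males, matching the labelled sexes. Its adjusted p of 0.772 was the lowest of all in the limma fit, so this fit did not call even that difference.

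**Figure D3:**
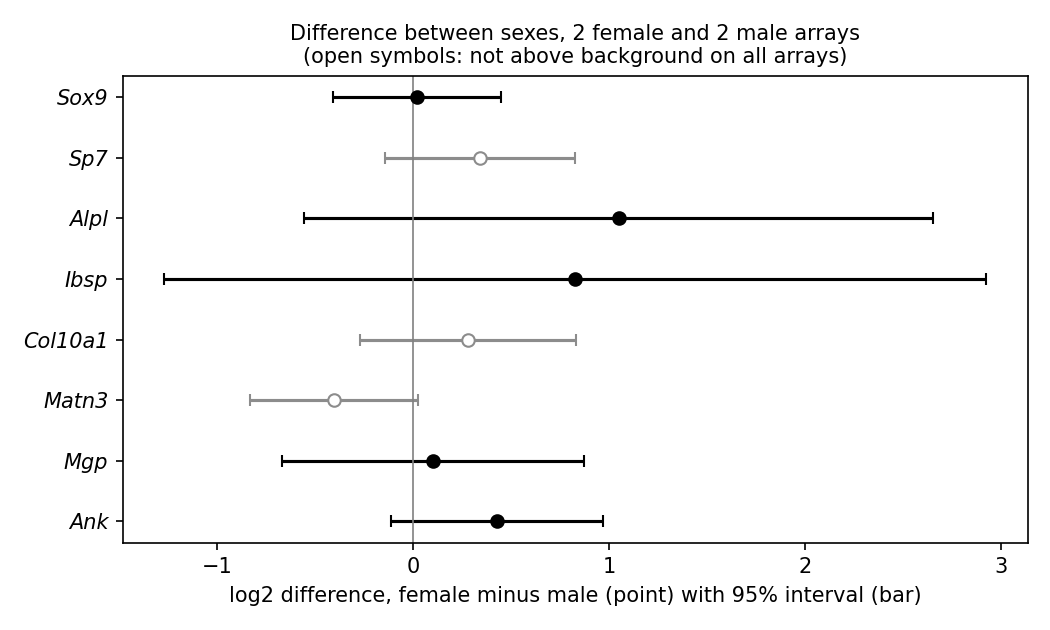
Log2 difference, female minus male, for the 8 genes (points) with the 95% interval of the limma fit (bars); open symbols mark Sp7, Col10a1 and Matn3, which were not above background on all arrays. Every interval includes 0, and those of Alpl (-0.56 to 2.66) and Ibsp (-1.27 to 2.93) are the widest of the 8.

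Further genes of cartilage were examined to see what accompanied these levels. Of 26 measured genes of cartilage matrix and its regulation, 8 (30.8%) were above background on all arrays, beside 31.5% of all genes. A further 11 were above it on none and 7 on some. The markers listed for chondrocytes, Col2a1, Acan, Col9a1, Hapln1, Cnmd and Snorc, included 0 that passed on all 4 arrays. Other genes of cartilage did pass: Col9a2, a chain of collagen IX, was between 3.99 and 5.01, and Ihh, a signal of prehypertrophic chondrocytes, between 3.66 and 3.87, both picked after their values were seen. Col2a1, the main collagen of hyaline cartilage, was between 2.76 and 2.91. Acan, the aggrecan gene, was at 3.29 and 2.64 in males and at 2.92 and 3.85 in females, and passed on 3 arrays. The link protein gene Hapln1 stayed between 1.48 and 1.84 and the chondromodulin gene Cnmd between 1.24 and 1.63, below background throughout.

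Matrix genes that tendon shares with cartilage were detected. Comp, a matrix protein of cartilage and tendon, was at 8.01 in male 1, 6.64 in male 2, 6.90 in female 1 and 8.75 in female 2. Prg4, which encodes the lubricant lubricin, was at 10.02, 9.74, 9.14 and 10.13 in the same order. Chad, the chondroadherin gene, was at 10.30, 9.70, 9.69 and 10.70; it was picked after its values were seen. In all of these, as for Mgp, male 1 and female 2 were the higher arrays. Sox6, a partner of Sox9 in cartilage that also acts in muscle fibres, was at 5.29 and 4.99 in males and at 4.98 and 3.63 in females, a difference of -0.83 (SE 0.48, adjusted p = 0.969 by limma). It rested on female 2, without which it was -0.16, and was -1.50 without female 1. Over the 26 genes the median difference was -0.01, with 0 called.

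Of 23 measured osteoblast and osteocyte genes, 10 (43.5%) were above background on all arrays, beside 31.5% of all genes, and 8 on none. The 10 were Dlx3, Pdpn, Col1a1, Col1a2, Sparc, Omd, Bmp4, Bmp7, Lrp5 and Lrp6. Of the 5 measured genes taken as defining markers of osteoblasts and osteocytes, 0 passed on all arrays. The larger share of the list is therefore not read as a sign of bone cells. Those on none included Dmp1, Mepe and Sost, the sclerostin gene of osteocytes, which was between 1.94 and 2.63. Bglap, the osteocalcin gene, was at 3.26 and 3.04 in males and at 2.77 and 2.29 in females, close to background. Near-identical copies of Bglap exist, so its value is uncertain. Omd, which encodes osteomodulin, a leucine-rich proteoglycan that binds mineral, was at 3.06 and 3.21 in males and at 3.98 and 5.16 in females. The difference of 1.44 (SE 0.42) was not called by limma (adjusted p = 0.969). Bmp4, a bone morphogenetic protein gene, was at 3.11 and 2.90 in males and at 3.53 and 4.09 in females, a difference of 0.80 (SE 0.25) that was not called either. Female 2 was the highest array for both genes, as for Ibsp, and 12 of the 23 genes had their highest value there, beside 24.8% of all genes. Without female 2 the difference was 0.85 for Omd and 0.52 for Bmp4. Dlx5, an osteoblast homeobox gene picked after its values were seen, passed background on 3 arrays, by 1.25 in male 1 and by 2.27 in female 2. In this list the groups did not overlap for 4 genes with females higher and for 4 with males higher. Over all probe sets the shares were 15.8% and 17.5%. The median difference of the list was 0.00, with 0 called.

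Of 20 measured genes of mineral regulation, 12 (60%) were above background on all arrays, beside 31.5% of all genes, and 4 on none. The median difference was -0.01, with 0 called. Ggcx, the carboxylase that activates Mgp protein, was at 3.26 and 3.58 in males and at 4.04 and 3.19 in females. The phosphate transporter gene Slc20a1 was at 5.10 and 4.92 in males and at 4.24 and 5.57 in females. Its relative Slc20a2 was at 4.25 and 5.32 in males and at 5.95 and 5.15 in females, with male 1 lowest. Xpr1, which encodes a phosphate exporter, was at 5.83 and 5.67 in males and at 5.33 and 4.80 in females; its difference of -0.68 (SE 0.23) did not pass and was -0.42 without female 2. Abcc6, a transporter gene whose loss causes soft tissue calcification, lay between 2.48 and 2.87 and passed background on 1 array. Enpp1 and Phospho1 were not analysed here.

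Osteoclast genes and genes that regulate osteoclasts were listed, since bone tissue could be taken along with a tendon. Of 15 measured genes, 3 (20%) were above background on all arrays, beside 31.5% of all genes, and 7 on none. The 3 were Ctsk, Tnfrsf11b and Ostm1. Of the 15 genes 0 were called, with a median difference of -0.01. Ctsk, a collagen-degrading cathepsin that fibroblasts also make, was at 4.04 and 4.10 in males and at 3.63 and 5.20 in females. Acp5, the osteoclast acid phosphatase gene, was at 2.37 and 2.90 in males and at 2.41 and 3.24 in females, above background on 1 array of each sex. Tnfsf11, the gene of the osteoclast-inducing ligand RANKL, lay between 2.53 and 2.96. Tnfrsf11b encodes osteoprotegerin, the decoy receptor of RANKL, and was at 3.25 and 3.48 in males and at 4.10 and 4.98 in females. Both females were higher, with a difference of 1.18 (SE 0.34) that limma did not call (adjusted p = 0.969) and that was 0.74 without female 2.

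**Figure D4:**
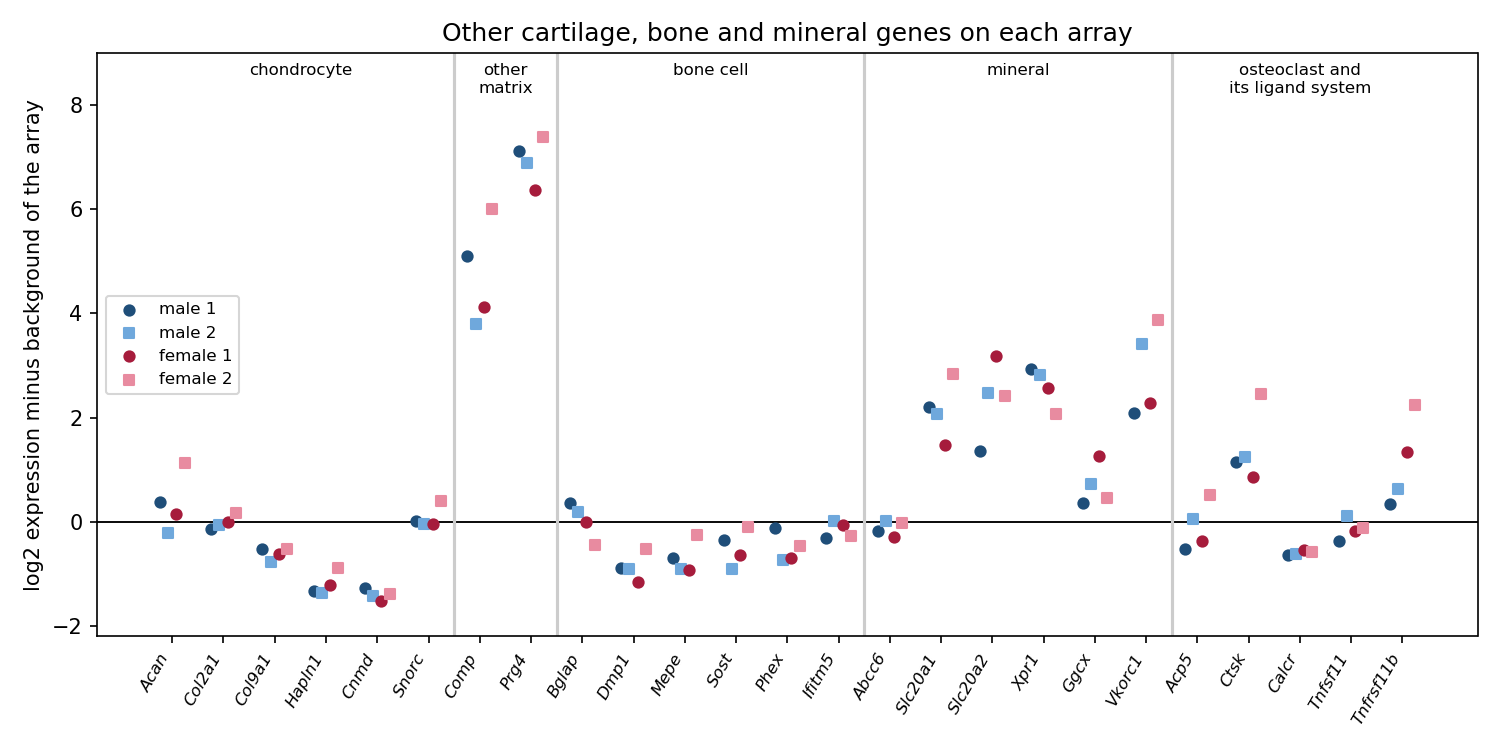
Log2 expression minus the background of the same array for related genes, grouped by role, with 1 point per array and the line at 0 marking the background. Apart from Acan in female 2, the chondrocyte and bone cell genes drawn here lie around or below the line. Among genes not drawn, Col9a2, Ihh and 10 genes of the osteoblast and osteocyte list pass it on all arrays. Comp, Prg4 and most genes of mineral regulation lie above it on every array.

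The tissue label was checked against defining markers. Of 6 tendon markers, Scx, Tnmd, Fmod, Kera and Thbs4 were above background on all arrays and Mkx was not. All 3 skeletal muscle markers and 4 of 5 macrophage markers were also above it on all arrays, as were the 4 endothelial and mural and the 3 adipocyte markers. Ctsk alone of 5 osteoclast markers was, and 0 of 5 measured osteoblast and osteocyte markers were. Of the blood and marrow markers 2 were measured, Elane and Mpo, and both lay below background on every array. Over all genes, 31.5% were above background on all arrays. The 3 muscle markers had a mean log2 level of 10.74 and 10.65 in males and of 10.63 and 9.39 in females. For the 6 tendon markers the mean was 5.02 and 4.86 in males and 4.69 and 5.32 in females.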

How the data were processed

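The authors deposited log2 expression values in 1 column for each array. Oligo and RMA appear in the submitters' processing notes; versions, summary level and annotation build are not given in the sources used here. Per the labels' protocols, cDNA was amplified from 12.5 ng of total RNA, and such amplification and RMA both limit how far a log2 difference reflects the RNA difference. The values ran from 0.517 to 11.933 and were not normalized again.

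Of 41345 rows, 23521 had exactly 1 symbol in the platform annotation and entered the fit; 1814 with several symbols and 16010 with none did not. Sex was the only term of a limma 3.58.1 model (R 4.3.3; lmFit, eBayes), with Benjamini-Hochberg adjustment over the 23521 probe sets and a threshold of 0.05; the median SE was 0.187. An exact two-sided permutation of 2 against 2 arrays cannot go below p = 0.333. Promoter sequences and gene order came from RefSeq GRCm38.p6; motifs were searched in Python 3.11.15.

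The members and lists were chosen with earlier results of these data known. Named were the 10 members, 20 listed related genes, and from each related list the 2 genes above background on all arrays with the widest sex difference; genes of other cell types were named where a result turned on them. Alternatives were all rows, a dim filter, a trended robust prior, quantile normalization, median centring, weighting of arrays, a replicate block, the mean over probe sets, other backgrounds, and leaving out each array. Same-numbered arrays of the sexes had deviations that correlated at -0.064, and the labels do not say that a number pairs animals.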

Additional observations from a re-analysis of the deposited data

How the results depend on the processing

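No probe set was called under any of the 12 alternative fits, nor at an adjusted p under 0.1. Of the differences of the 8 genes, those of Alpl, Ank, Sp7, Col10a1 and Matn3 kept their sign under every alternative fit that held them; the dim filter left out the last 3. The median difference of 0.31 was 0.31 with the replicate block, which changed no call and for which the labels give no pairing; leaving out 1 array gave 0.054 (without female 2) to 0.34. Sox9 turned to -0.093 after quantile normalization, and leaving out 1 array gave -0.10 to 0.13. The SE also depended on the fit. With the dim filter it was 0.28 for Ank, 0.26 for Sox9 and 0.34 for Mgp, wider than in the main fit. With the trended robust prior it was 0.34, 0.30 and 0.33 for the same genes. For Alpl and Ibsp it was slightly smaller than in the main fit under both. Leaving out 1 array gave -0.29 to 1.94 for Ibsp, -0.21 to 0.41 for Mgp and 0.20 to 1.90 for Alpl, lowest for Ibsp and Mgp without female 2; the mean over both Alpl probe sets gave 0.67. Sox6, Omd, Bmp4, Xpr1 and Tnfrsf11b kept their sign under all 12 alternative fits. Without female 2 they were at -0.16, 0.85, 0.52, -0.42 and 0.74. The count of 5 genes above background on all arrays was 3 at the stricter percentile and 7 with each array's median as background, and stayed at 5 when any array was left out. For the stricter percentile and the array median, the share over all probe sets was not computed. Signal over background limits Sp7, Col10a1 and Matn3. When 1 array is left out, the lone array of that sex is assumed to vary like the others.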
